A study of Homo sapiens with 14 samples.

Results

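Smooth muscle contractile genes were followed in human lung fibroblasts of the WI-38 strain, which were immortalized with hTERT (the telomerase enzyme subunit TERT) and kept in long culture. The genes were ACTA2, TAGLN, CNN1, MYH11, MYL9, TPM1, TPM2, CALD1, DES and ACTG2, chosen by name from the array platform's annotation. All 10 had a row of their own, 1 row each of the 28869 in the table, so 10 of 18377 named genes are described. The 14 arrays, 1 per RNA sample, came from 7 groups of 2. Primary WI-38 cells were taken at passage 19. The hTERT-immortalized cells whose titles begin with A were taken at passages 39, 50, 58, 67 and 95, and those whose titles begin with B at passage 96. Groups are called by this letter and passage (A39 to A95, and B96), or primary. Per the labels the 2 arrays of a group were biological duplicates, and all cells were kept in the same serum-containing medium and reseeded weekly at a fixed number. The labels do not say what A and B stand for or whether a culture descends from 1 cell.

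Contractile genes encode the actin filaments of smooth muscle and the proteins that decorate, anchor or pull on them. In fibroblasts several of them are low at rest and are raised when the cells become myofibroblasts, the contractile cells of wounds and scars, and alpha smooth muscle actin from ACTA2 is the usual marker of that state. Many are controlled by serum response factor (SRF), which binds a short DNA element called the CArG box and acts with the coactivator myocardin (MYOCD) or its relatives. Smooth muscle myosin heavy chain from MYH11 and the intermediate filament protein desmin from DES mark differentiated muscle more strictly than the other genes.

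The arrays of 1 label were not the most alike, which bears on every value below. Over all rows, 5 pairs of arrays were each other's closest partner, and 0 of them shared a label. In each, the second array of a label was paired with the first array of the following label, for primary and A39, for A39 and A50, for A50 and A58, for A58 and A67, and for A95 and B96. The targeted gene also went against 1 label, since TERT read 7.07 in the array labelled primary replicate 1 and 11.70 in the array labelled primary replicate 2, against 10.67 to 12.18 in the 12 hTERT arrays. Values are therefore given array by array. Whether labels are displaced against the samples was not tested. A displaced label would change the passage and the group behind each comparison and slope below, which all keep the labels as they stand.

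The cell type was checked on the same arrays. Of 11 fibroblast markers, 10 lay above the array's median in all 14 arrays (COL1A1, COL1A2, COL3A1, PDGFRA, PDGFRB, THY1, LUM, DCN, FAP and COL6A1), and S100A4 did so in 12. EPCAM and CDH1 of epithelial cells, CDH5 and VWF of endothelial cells, and PTPRC of blood cells lay below it in all 14. Other markers of the same lists did not. KRT8 and KRT18 of simple epithelia and CD68 of macrophages lay above it in all 14, and CLDN5 of endothelial cells in 12. The endothelial receptor gene TEK read 9.18 to 10.76 in 12 arrays and 6.77 and 6.79 in A95 replicate 2 and B96 replicate 1. PECAM1, also of endothelial cells, was opposite, with 8.44 and 7.83 in that pair and 6.17 to 7.04 in the other 12. KRT19 reached 9.11 and was above the median in 6 arrays, and the globin gene HBB reached 8.61 and was above it in 4. The lung surfactant gene SFTPC spanned 7.0 to 7.96 and the endothelial gene ROBO4 7.22 to 7.77, close to the medians, while LYZ and CD3E of blood cells were at most 5.42 and 6.78. No marker of these lists was at 0. Their part in the contractile values was not tested. Array medians were 7.26 to 7.48 on the log2 scale. Of the contractile genes, 8 lay above the array's median in every array, DES lay above it in 7 arrays and below it in 7, and MYH11 lay below it in all 14, with values of 5.53 to 6.14. The table holds no detection calls, so it is not known whether MYH11 and DES were above background. In these bulk samples, fewer cells of a type and less RNA per cell cannot be told apart.

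The DNA before the gene starts is shown for ACTA2, CNN1 and ACTG2, which share an expression pattern described below and have an entry in RefSeq's promoter table (GRCh38.p14). Each sequence is the 250 bases upstream of the annotated start, read 5′ to 3′ on the gene's strand, and capitals mark exact CArG boxes (CC, a run of A or T, then GG).
ACTA2, chr10:88991338-88991587, minus strand: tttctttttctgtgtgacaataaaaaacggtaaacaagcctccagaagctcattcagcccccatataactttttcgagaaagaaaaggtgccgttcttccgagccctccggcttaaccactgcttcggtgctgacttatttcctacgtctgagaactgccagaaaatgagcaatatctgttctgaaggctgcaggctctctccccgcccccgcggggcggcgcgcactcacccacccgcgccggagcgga
CNN1, chr19:11538601-11538850, plus strand: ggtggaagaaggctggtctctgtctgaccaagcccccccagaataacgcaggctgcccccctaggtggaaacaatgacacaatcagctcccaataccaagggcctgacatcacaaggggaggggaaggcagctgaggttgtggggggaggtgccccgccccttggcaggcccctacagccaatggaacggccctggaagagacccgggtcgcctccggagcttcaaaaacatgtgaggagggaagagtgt
ACTG2, chr2:73892758-73893007, plus strand: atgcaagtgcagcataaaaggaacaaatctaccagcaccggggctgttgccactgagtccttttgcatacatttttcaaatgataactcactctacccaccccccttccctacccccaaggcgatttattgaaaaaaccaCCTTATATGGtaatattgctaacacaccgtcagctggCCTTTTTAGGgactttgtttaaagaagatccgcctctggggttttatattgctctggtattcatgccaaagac

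Entries were found for 6 of the 10 genes, and TAGLN, MYL9, MYH11 and DES had none. The ACTG2 window held 2 exact CArG boxes on the gene's strand, CCTTATATGG starting 110 bases and CCTTTTTAGG starting 73 bases before the annotated start. An exact CArG box on either strand was found in 1 of the 6 windows and in 1.16% of 35116 windows of the same length. With 1 base off the element, CALD1 and ACTG2 matched, against 15.9% of all windows. The TEAD factor element CATTCC was found in CALD1 (11.9% of all windows) and TATAAA in ACTG2 (10.7% of all windows), both on the strand opposite to the gene. The smooth muscle starts of a gene can differ from the annotated one, and a missing match says only that the letters are not in this window.

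**Figure D1:**
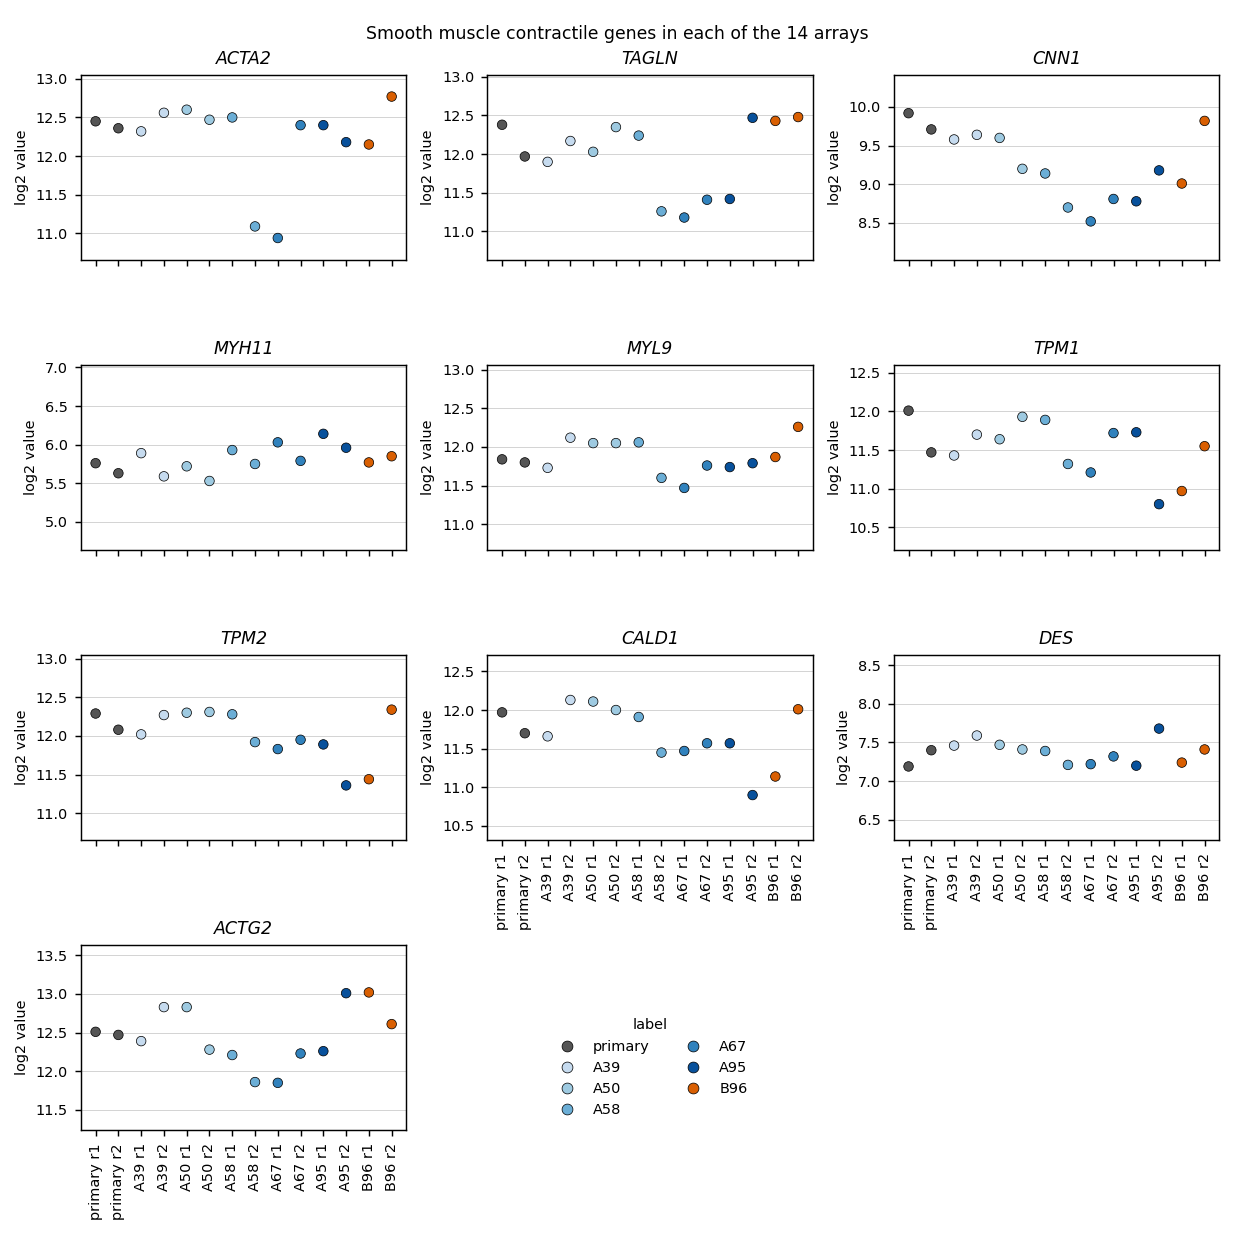
Log2 value (vertical axis) of each contractile gene in the 14 arrays (horizontal axis, in order of labelled passage), 1 point per array, coloured by label. Each vertical axis spans at least 2 log2 units. ACTA2 is lowest in A58 replicate 2 and A67 replicate 1, and TPM1, TPM2 and CALD1 are lowest in A95 replicate 2 and B96 replicate 1.

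ACTA2, the alpha smooth muscle actin gene, was at a nearly level value in 12 arrays and low in 2. It read 12.45 and 12.36 in primary, 12.32 and 12.56 in A39, 12.60 and 12.47 in A50, 12.50 and 11.09 in A58, 10.94 and 12.40 in A67, 12.40 and 12.18 in the A95 arrays, and 12.15 and 12.77 in the B96 arrays. A58 replicate 2 and A67 replicate 1 lay below all others, and the lowest of the other 12 was 12.15. A58 replicate 2 was 1.41 log2 below A58 replicate 1, a 2.66-fold difference, and A67 replicate 1 was 1.46 log2 below A67 replicate 2, or 2.75-fold. Because the low arrays stand in different groups, the group means were 11.795 ± 0.997 in A58 and 11.67 ± 1.03 in A67 (SD, n = 2 each). The other groups ran in the order A95 at 12.29 ± 0.16, primary at 12.405 ± 0.064, A39 at 12.44 ± 0.17, B96 at 12.46 ± 0.44 and A50 at 12.535 ± 0.092, and no neighbours in this order were separated beyond their SDs.

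ACTG2 encodes gamma smooth muscle actin, the actin of visceral muscle, which is nearly identical to the ACTA2 product in sequence, so that probes of these rows may respond to both. It read 12.51 and 12.47 in primary, 12.39 and 12.83 in A39, 12.83 and 12.28 in A50, 12.21 and 11.86 in A58, 11.85 and 12.23 in A67, 12.26 and 13.01 in the A95 arrays, and 13.02 and 12.61 in the B96 arrays. It was lowest in the same 2 arrays as ACTA2, but highest in A95 replicate 2 and B96 replicate 1, where ACTA2 was at 12.18 and 12.15.

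TAGLN, which encodes the actin-binding protein transgelin (SM22 alpha), was low in 4 arrays. Its values were 12.38 and 11.97 in primary, 11.90 and 12.17 in A39, 12.03 and 12.35 in A50, 12.24 and 11.26 in A58, 11.18 and 11.41 in A67, 11.42 and 12.47 in the A95 arrays, and 12.43 and 12.48 in the B96 arrays. A58 replicate 2 and both A67 arrays were low together with A95 replicate 1, whereas A95 replicate 2 and both B96 arrays were the highest. Within the A95 label, replicate 2 was 2.07-fold above replicate 1.

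CNN1 encodes calponin, an actin-binding protein that slows the myosin motor. It read 9.92 and 9.71 in primary, 9.58 and 9.64 in A39, 9.60 and 9.20 in A50, 9.14 and 8.70 in A58, 8.52 and 8.81 in A67, 8.78 and 9.18 in the A95 arrays, and 9.01 and 9.82 in the B96 arrays. Primary, A39 and A50 replicate 1 lay at the high end together with B96 replicate 2, and A58 replicate 2 and A67 replicate 1 were the lowest. Its group means were 9.815 ± 0.148 in primary, 9.61 ± 0.042 in A39, 9.40 ± 0.28 in A50, 8.92 ± 0.31 in A58, 8.665 ± 0.205 in A67, 8.98 ± 0.28 in A95 and 9.415 ± 0.573 in B96 (SD, n = 2 each).

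MYL9 encodes the regulatory light chain of smooth muscle and non-muscle myosin, whose phosphorylation switches contraction on. It varied little, from 11.47 in A67 replicate 1 to 12.26 in B96 replicate 2, with a median of 11.82. The low end was again formed by A58 replicate 2 at 11.60 and A67 replicate 1 at 11.47, while both A50 arrays read 12.05.

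The 5 genes ACTA2, TAGLN, CNN1, MYL9 and ACTG2 thus had A58 replicate 2 and A67 replicate 1 as their 2 lowest arrays, against 1.43% of all 28869 rows with that order. The arrays were picked after these values were seen, so the share is a description. At a gap of at least 0.5 log2, A58 replicate 2 was below A58 replicate 1 for 3 of 10 contractile genes (ACTA2, TAGLN and TPM1), against 10.2% of all rows, and above it for 0 (7.14% of all rows). A67 replicate 1 was below A67 replicate 2 for 2 of 10 (ACTA2 and TPM1), against 5.75% of all rows, and above it for 0 (8.09% of all rows). The summed log2 value of the 10 genes, which include those 5, is likewise only a description. It was 102.16 and 101.72 in these arrays and 104.96 to 109.10 in the other 12. Contraction regulators and smooth muscle partners summed to 150.09 and 148.64, against 147.72 to 159.45 in the other 12. Non-muscle relatives summed to 159.6 and 159.53, against 156.62 to 162.11. For the endothelial list that sum was 50.02 and 51.28, against 49.47 to 51.83 in the other 12, for the epithelial list 64.49 and 66.42, against 64.60 to 70.59, and for the blood list 39.70 and 40.66, against 38.95 to 42.42. The fibroblast list summed to 125.54 and 124.14, against 120.70 to 131.41 in the other 12. The list of SRF, myocardin and TEAD genes summed to 191.47 and 189.54, against 190.21 to 194.94.

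TPM1 and TPM2 encode tropomyosins, which lie along the actin filament, and CALD1 encodes caldesmon, which binds actin and tropomyosin and restrains the motor. Each of these genes also has forms made in non-muscle cells, which the gene-level rows do not separate. TPM1 read 12.01 and 11.47 in primary, 11.43 and 11.70 in A39, 11.64 and 11.93 in A50, 11.89 and 11.32 in A58, 11.21 and 11.72 in A67, 11.73 and 10.80 in the A95 arrays, and 10.97 and 11.55 in the B96 arrays. Primary replicate 1 was highest, and A95 replicate 2 and B96 replicate 1 were lowest.

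TPM2 read 12.29 and 12.08 in primary, 12.02 and 12.27 in A39, 12.30 and 12.31 in A50, 12.28 and 11.92 in A58, 11.83 and 11.95 in A67, 11.89 and 11.36 in the A95 arrays, and 11.44 and 12.34 in the B96 arrays. CALD1 read 11.97 and 11.70 in primary, 11.66 and 12.13 in A39, 12.11 and 12.00 in A50, 11.91 and 11.45 in A58, 11.47 and 11.57 in A67, 11.57 and 10.90 in the A95 arrays, and 11.14 and 12.01 in the B96 arrays. Both genes were lowest in A95 replicate 2 and B96 replicate 1, and both read lower from A58 replicate 2 to A95 replicate 1 than in the A39 replicate 2, A50 and A58 replicate 1 arrays.

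These 3 genes had A95 replicate 2 and B96 replicate 1 as their 2 lowest arrays, against 11.5% of all rows, and ACTG2 had them as its 2 highest, against 16% of all rows. Many rows set this pair of arrays apart, so the order is not particular to contractile genes. Within the A95 label, replicate 2 was lower than replicate 1 by at least 0.5 log2 for TPM1, TPM2 and CALD1 (14.4% of all rows) and higher by as much for TAGLN and ACTG2 (17.7% of all rows). B96 replicate 1 was lower than B96 replicate 2 by as much for 5 genes, ACTA2, CNN1, TPM1, TPM2 and CALD1 (16.6% of all rows), and higher for 0 (16.5% of all rows). Primary replicate 1 was higher than primary replicate 2 by as much for TPM1 alone (8.15% of all rows), and lower for 0 (8.19% of all rows).

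MYH11 and DES, the stricter muscle markers, moved least. MYH11 ran from 5.53 in A50 replicate 2 to 6.14 in A95 replicate 1, with a median of 5.78, and DES from 7.19 in primary replicate 1 to 7.68 in A95 replicate 2, with a median of 7.395. In A58 replicate 2 and A67 replicate 1, where ACTA2 was lowest, MYH11 read 5.75 and 6.03. DES read 7.21 and 7.22 there, close to its lowest value. A range of at least 1 log2 over the 14 arrays was seen for 6 of the 10 contractile genes (ACTA2, TAGLN, CNN1, TPM1, CALD1 and ACTG2) and for 37.3% of all rows, and a range of at least 0.5 log2 for 9 of 10 and 89.8% of all rows.

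**Figure D2:**
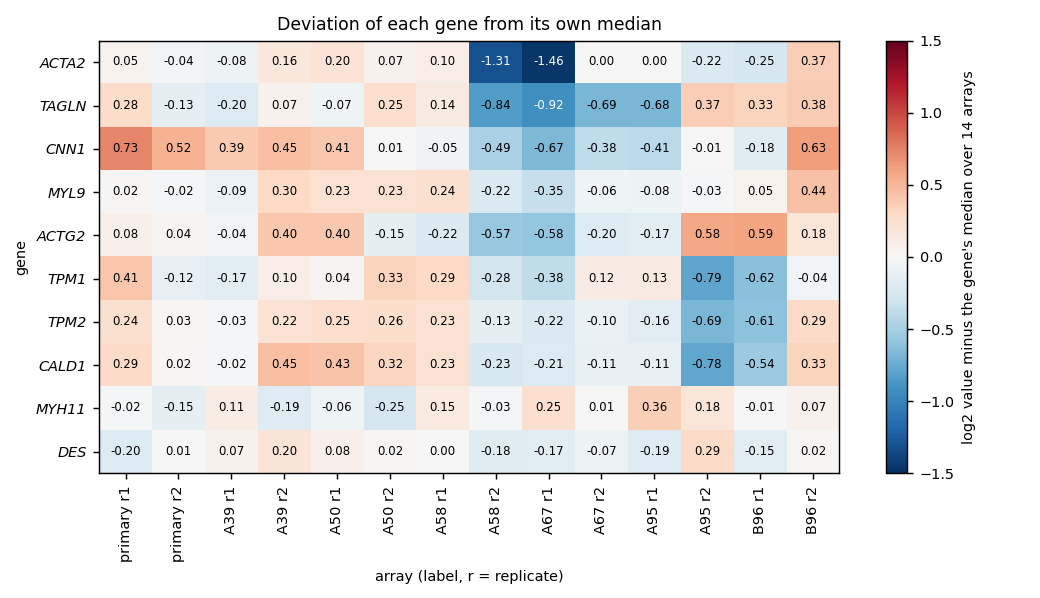
Deviation of each contractile gene (rows) from its own median over the 14 arrays, in log2 units, per array (columns, in order of labelled passage). Blue is below and red above the median. ACTA2, TAGLN, CNN1, MYL9 and ACTG2 are blue in A58 replicate 2 and A67 replicate 1, and TPM1, TPM2 and CALD1 are bluest in A95 replicate 2 and B96 replicate 1, where ACTG2 is red.

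Gaps of the contractile genes were smaller between closest partners than between arrays sharing a label, as for the table as a whole, from which the partners were found. Between the 5 pairs of closest partners the largest gap of any contractile gene was 0.14 to 0.44 log2, and the median gap over the 10 genes was 0.05 to 0.125. Between the 7 pairs that share a label the largest gap was 0.47 to 1.46 log2, and the median gap was 0.16 to 0.505. ACTA2 differed by 0.15 log2 between the partners A58 replicate 2 (11.09) and A67 replicate 1 (10.94). Over all rows the median gap was 0.10 to 0.16 between partners and 0.19 to 0.33 between arrays sharing a label, so the pattern is not particular to contractile genes.

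**Figure D3:**
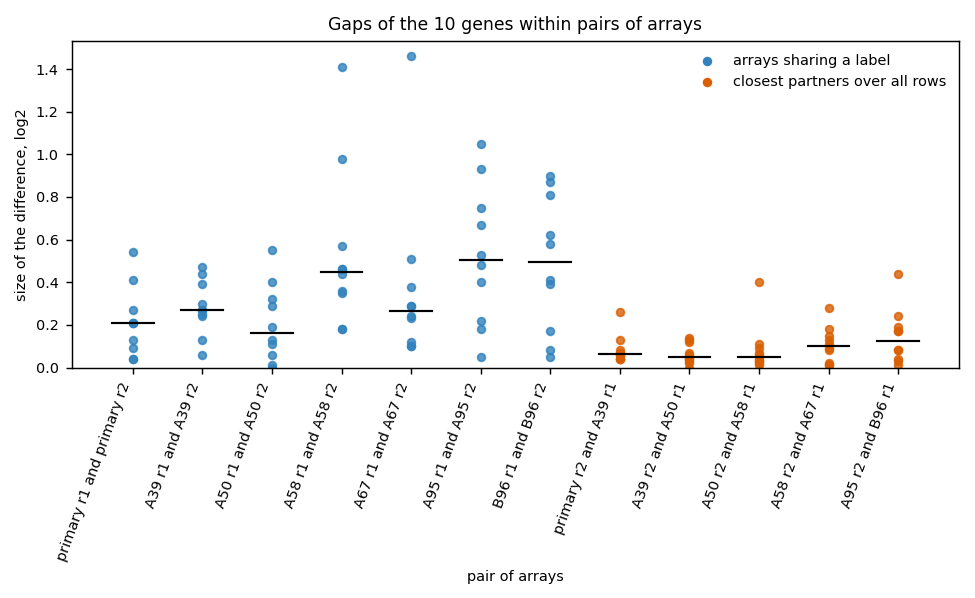
Size of the difference between 2 arrays (vertical axis, log2) for each of the 10 contractile genes, 1 point per gene, in the 7 pairs that share a label (blue) and the 5 pairs of closest partners (orange). Black bars are medians. No point of a closest pair exceeds 0.44, while ACTA2 reaches 1.41 in the A58 pair and 1.46 in the A67 pair.

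Comparisons between labels asked whether contractile genes differ at the earliest hTERT passage, along the passages labelled A, and between the late A and B cells. The smallest adjusted p over the 10 genes was 1.00 for A39 versus primary, 0.54 for A95 versus A39 and 1.00 for B96 versus A95 (limma, Benjamini-Hochberg over all rows), so 0 of 10 were called in each. Limma called 0 of 28869 rows in each of the 3 comparisons as well, a background of 0%. At an unadjusted p under 0.05, 0, 1 and 0 of the 10 genes passed, against 1.2%, 9.21% and 2.28% of all rows. An F test for any difference among the 7 labels called 0 contractile genes and 0% of all rows. At an unadjusted p under 0.05 it passed CNN1 alone, against 4.62% of all rows. Each group holds 2 arrays that differ by as much as different groups do, so few calls do not show that levels were equal.

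In A39 versus primary, ACTA2 averaged 12.44 in A39 and 12.405 in primary, a difference of 0.035 ± 0.490 log2 (SE). DES was higher in both A39 arrays than in either primary array (15% of all rows), with 7.46 and 7.59 against 7.19 and 7.40, and CNN1 was lower in both (12.8% of all rows), with 9.58 and 9.64 against 9.92 and 9.71. The other 8 genes overlapped between the labels. The median difference of the 10 genes was 0.04 log2, and that of all genes 0.035. The TERT level of primary replicate 2 makes the side of that array uncertain. Without it the differences were -0.31 for CNN1 and 0.335 for DES, and without primary replicate 1 they were -0.10 and 0.125.

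In A95 versus A39, 8 of the 10 genes had a negative difference, with a median of -0.16 log2, against a median of 0.05 over all genes, of which 56.5% were positive. Other lists shifted in the same comparison. Differences were negative for 10 of 11 fibroblast markers (median -0.51) and 10 of 14 non-muscle relatives (median -0.21), and positive for 11 of 11 cycling genes (median 0.80). The part of these shifts in the contractile values was not tested. CALD1 averaged 11.235 in A95 and 11.895 in A39, a difference of -0.66 ± 0.32 log2 (SE). CNN1 averaged 8.98 in A95 and 9.61 in A39, a difference of -0.63 ± 0.28. TPM2 averaged 11.625 in A95 and 12.145 in A39, a difference of -0.52 ± 0.29. In these 3 genes both A95 arrays lay below both A39 arrays (15.4% of all rows), and in MYH11 both lay above (22.7% of all rows), with 6.14 and 5.96 in A95 against 5.89 and 5.59 in A39. The adjusted p was 0.54 to 0.568 for these 4 genes (limma), so none passed. Without A95 replicate 2 the differences were -0.325 for CALD1 and -0.255 for TPM2, and without A95 replicate 1 they were -0.995 and -0.785, with TAGLN at 0.435 in place of -0.09.

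In B96 versus A95, 7 of the 10 genes had a positive difference, with a median of 0.22 log2, against -0.005 over all genes. Differences were also positive for 9 of 11 fibroblast markers (median 0.27) and 14 of 17 contraction regulators and partners (median 0.26), and negative for 11 of 11 cycling genes (median -0.29). MYL9 read 11.87 and 12.26 in B96 and 11.74 and 11.79 in A95 and was higher in both B96 arrays (9.83% of all rows). MYH11 read 5.77 and 5.85 in B96 and 6.14 and 5.96 in A95 and was lower in both (9.84% of all rows). TAGLN averaged 12.455 in B96 and 11.945 in A95, a difference of 0.51 ± 0.37 log2 (SE), and CNN1 averaged 9.415 in B96 and 8.98 in A95, a difference of 0.435 ± 0.283. The CNN1 difference was 0.03 without B96 replicate 2 and 0.84 without B96 replicate 1, and that of TAGLN was 1.035 without A95 replicate 2 and -0.015 without A95 replicate 1.

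**Figure D4:**
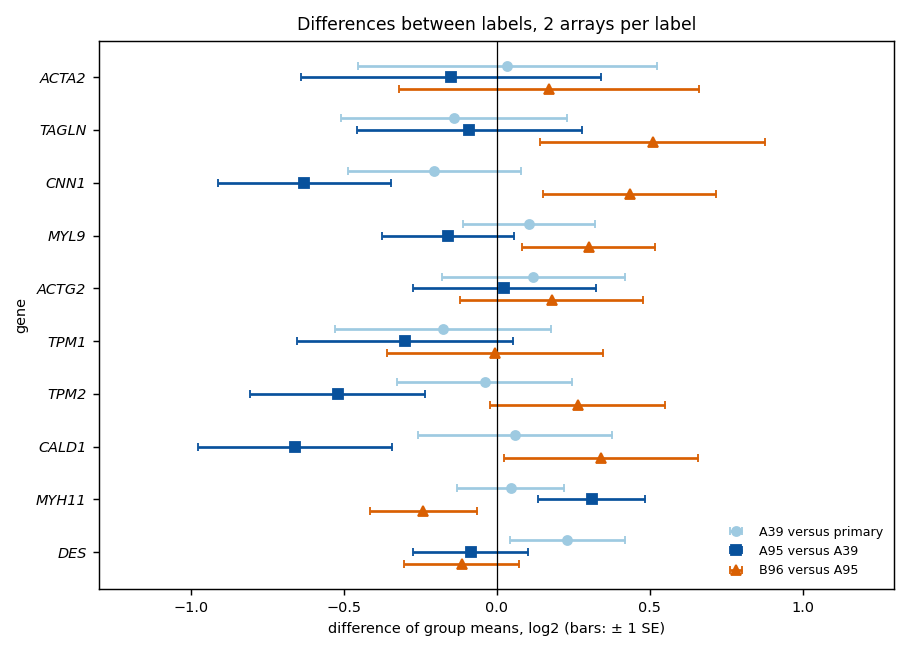
Difference of group means (horizontal axis, log2) for each contractile gene in A39 versus primary (circles), A95 versus A39 (squares) and B96 versus A95 (triangles), with 2 arrays per group. Bars are ± 1 SE from limma. The most negative value is -0.66 for CALD1 in A95 versus A39, the most positive 0.51 for TAGLN in B96 versus A95, and no difference passed the threshold.

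Over the 10 A arrays a straight line was fitted against passage. Limma found a slope in 81 of 28869 rows at an adjusted p under 0.05, or 0.281%, and in 0 of the 10 contractile genes, whose smallest adjusted p was 0.142 (TPM2). Slopes were negative for 8 of 10 genes, with a median of -0.044 log2 per 10 passages, against 0.0098 over all genes. They were also negative for 10 of 11 fibroblast markers (median -0.10) and 10 of 14 non-muscle relatives (median -0.036), and positive for 11 of 11 cycling genes (median 0.19). CALD1 had a slope of -0.138 ± 0.042 (SE), CNN1 of -0.115 ± 0.053 and TPM2 of -0.113 ± 0.034, while that of MYH11 was 0.067 ± 0.028 and that of ACTA2 -0.042 ± 0.092. At an unadjusted p under 0.05 there were 3 genes, MYH11, TPM2 and CALD1, against 18.7% of all rows, and the slopes of TPM2 and CALD1 were falling, against 8.83% of all rows. The fit takes as independent arrays that are closest partners across labels, which can make its p-values too small. With array weights MYH11 alone passed, at a slope of 0.089 and an adjusted p of 0.0462 (0.231 with equal weights, and 0.182 to 0.385 with each array left out), when 2171 rows passed.

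MYOCD, the muscle coactivator of SRF, was among the pathway genes with the widest range, and 0 of 19 genes of this list were called in any comparison or in the slope. It read 8.86 and 8.69 in primary, 8.46 and 8.45 in A39, 8.49 and 8.79 in A50, 8.43 and 7.33 in A58, 6.84 and 8.42 in A67, 8.22 and 8.03 in the A95 arrays, and 7.84 and 8.08 in the B96 arrays. Its 2 lowest arrays were those in which ACTA2 was lowest, at 1.10 log2 below A58 replicate 1 and 1.58 log2 below A67 replicate 2. ANKRD1, a stretch-responsive target of the YAP and TEAD factors, was likewise lowest there, with 7.59 and 7.87 against 8.32 to 9.79 in the other 12 arrays.

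TEAD2, a TEAD transcription factor, was at 7.97 in A58 replicate 2 and 7.82 in A67 replicate 1, and lower still at 7.57 in A95 replicate 2 and 7.66 in B96 replicate 1. KLF4, which represses smooth muscle genes, was at 8.22 to 8.89 from A50 replicate 2 to A95 replicate 1 and at 6.66 to 7.48 in the other arrays. SRF itself, named after its values were seen, ran from 9.31 in A58 replicate 1 to 10.35 in B96 replicate 2 and read 9.83 and 9.76 in the arrays where ACTA2 was lowest.

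By Pearson correlation over the 14 arrays, MYOCD was also the third gene most like ACTA2 among all 18377, after PERM1 and PDXDC1, with r of 0.859, 0.896 and 0.892. The arrays share closest partners and are not independent, so these values describe likeness and carry no p. The likeness to MYOCD rests on the 2 low arrays, since r was 0.285 without A58 replicate 2 and A67 replicate 1. Spearman's rho over all 14 arrays was 0.559. PERM1 spanned only 0.41 log2, and its r was 0.626 without them.

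The mean of the 6 contractile genes with a range of at least 1 log2 was most like SPARC, a matrix-binding glycoprotein, with r = 0.933 over the 14 arrays. ZFPM2, HIVEP1, COL8A1 and CTHRC1 followed, with r of 0.928, 0.927, 0.925 and 0.922. Without A58 replicate 2 and A67 replicate 1 these 5 values of r were 0.852 to 0.950. SPARC read 12.30 and 12.14 in those arrays and 12.49 to 13.14 in the others, and CTHRC1, a secreted protein of activated fibroblasts, read 8.84 and 8.94 there against 9.07 to 11.08. The genes most like MYH11 were TLR8, CASQ2 and NRARP, with r of 0.849, 0.844 and 0.830. TLR8 and CASQ2 had values of at most 5.80, which, like MYH11, lie below all array medians.

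**Figure D5:**
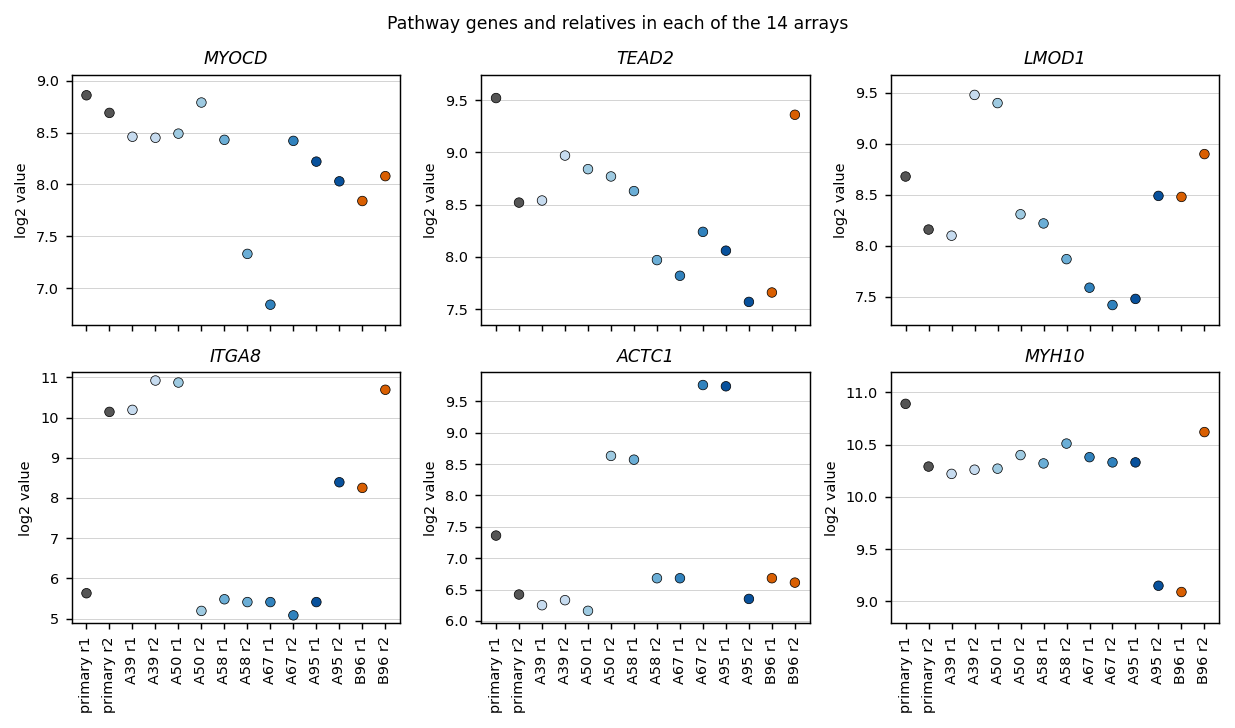
Log2 value (vertical axis, with its own scale in each panel) of 6 related genes in the 14 arrays (horizontal axis, in order of labelled passage), 1 point per array, coloured by label as in the tick names. MYOCD is lowest in A58 replicate 2 and A67 replicate 1, ITGA8 splits the arrays into high and low values, ACTC1 is at 8.57 to 9.76 in 4 arrays, and MYH10 is lowest in A95 replicate 2 and B96 replicate 1.

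Contraction regulators and smooth muscle partners were measured for 17 of 22 listed genes. Slopes with passage were negative for 10 of the 17, and 1 gene was called as falling, against 0.239% of all rows. HSPB6, a small heat shock protein that relaxes smooth muscle, had a slope of -0.307 ± 0.042 log2 per 10 passages (SE, limma adjusted p = 0.0389), and read 9.86 and 10.04 in A39 and 8.66 and 8.09 in A95. This call did not hold with any 1 of 7 A arrays left out, when 0 of all rows passed. LMOD1, which nucleates actin filaments in smooth muscle, was highest at 9.48 in A39 replicate 2 and 9.40 in A50 replicate 1, and lowest at 7.42 in A67 replicate 2 and 7.48 in A95 replicate 1. SYNPO2, an actin-bundling protein, was highest at 8.72 in A50 replicate 2 and 8.79 in A58 replicate 1. ITGA8, an integrin subunit of smooth muscle and myofibroblasts, had the widest range, 5.84 log2, with 5.08 to 5.63 in 7 arrays, 8.39 and 8.25 in A95 replicate 2 and B96 replicate 1, and 10.14 to 10.92 in the other 5. Its low arrays held both low and level values of ACTA2.

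Non-muscle relatives of the contractile genes were measured for 14 of 15 listed genes, with 0 called. MYH10, a non-muscle myosin heavy chain, read 9.15 and 9.09 in A95 replicate 2 and B96 replicate 1 and 10.22 to 10.89 in the other 12 arrays. CNN3, a calponin of many tissues, and MYL6, the essential myosin light chain, were lowest in the same arrays, with 10.78 and 10.94 and with 12.20 and 12.12. TAGLN3, a transgelin of neurons, differed from these, with 7.42 in primary replicate 1 and 6.22 to 6.89 elsewhere. The cytoplasmic actins ACTB and ACTG1, named after their values were seen, spanned 0.12 and 0.24 log2. CNN2 and MYH9, named in the same way, were lowest in A58 replicate 2 and A67 replicate 1. CNN2 read 11.47 and 11.27 there, and MYH9 read 11.91 and 11.76. TAGLN2, also named so, was highest there, at 12.32 and 12.22.

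Other muscle markers and growth differed between the arrays too. Of the striated muscle list, measured for 26 of 27 genes with 0 called, ACTC1, the cardiac actin gene, was at 8.63 and 8.57 in A50 replicate 2 and A58 replicate 1 and at 9.76 and 9.74 in A67 replicate 2 and A95 replicate 1, against 6.16 to 7.36 in the other arrays. Its coding sequence is close to those of ACTA2 and ACTG2, so its row may share signal with theirs, and its value in A58 replicate 2 and A67 replicate 1 was 6.68. TNNC2, a fast skeletal troponin gene, read 8.75 and 8.86 in A95 replicate 2 and B96 replicate 1 and 6.73 to 7.76 elsewhere. The embryonic myosin gene MYH3 and the light chain gene MYL3 were highest in A95 replicate 2, at 8.46 and 8.0. MKI67, a marker of cycling cells, read 10.82 and 10.62 in the arrays where ACTA2 was lowest, 10.91 and 10.88 in A67 replicate 2 and A95 replicate 1, where ACTA2 was 12.40. Its lowest values were 8.79 in A39 replicate 2 and 8.84 in A50 replicate 1, and CDK1, BUB1 and CCNA2, which drive or guard cell division, were lowest in A39 replicate 2 as well, at 8.14, 8.40 and 9.66. The 11 cycling genes had a median deviation of 0.275 and 0.215 log2 in A58 replicate 2 and A67 replicate 1, and the 11 fibroblast markers of -0.235 and -0.515. COL3A1 was lowest in these arrays, at 10.00 and 10.18, and THY1 read 10.69 and 10.47 there, whereas S100A4 was highest there, at 11.37 and 11.20. COL1A1 and COL1A2 were also lowest there, at 12.71 and 12.59 and at 12.43 and 12.47. PDGFRA was highest there, at 12.43 and 12.37. COL1A1, COL1A2 and PDGFRA were named here after their values were seen. LUM was lowest in A95 replicate 2, at 9.15. The part of growth or of a general shift of fibroblast genes in the contractile values was not tested.

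Pericyte markers were measured for 7 of 7 genes, none of them at 0 in any array. CSPG4, MCAM and KCNJ8 lay above the array's median in all 14 arrays, NOTCH3 in 13, ABCC9 in 10 and RGS5 in 6. HIGD1B lay below it in all 14. The summed log2 value of the 7 genes was 55.69 and 55.73 in A58 replicate 2 and A67 replicate 1. It was 53.77 to 60.46 in the other 12 arrays. MCAM, a surface marker of pericytes and smooth muscle, read 8.98 and 9.01 in the same arrays and 8.46 to 10.77 in the others, and NOTCH3, a receptor of mural cells, read 7.39 and 7.58 there within a range of 7.29 to 8.88. ABCC9, a potassium channel subunit of pericytes, had its highest value of 8.36 in A58 replicate 2 and read 8.24 in A67 replicate 1. It was similar in other arrays, with 8.27 in primary replicate 1, 8.12 in A67 replicate 2 and 8.07 in A95 replicate 1. Its lowest value was 6.07 in A39 replicate 2. RGS5, a pericyte signalling regulator, read 7.24 and 6.95 in these arrays within a range of 6.41 to 8.62. Their part in the contractile values was not tested.

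TGF-beta raises contractile genes in fibroblasts, and its pathway was measured for 14 of 15 listed genes, with 0 called. TGFB2, a ligand, was lowest in A58 replicate 2 at 6.45, and low at 6.56 to 6.79 in both A67 arrays and A95 replicate 1, against 7.62 to 9.90 in the other arrays. POSTN, a matrix gene raised by TGF-beta, read 8.95 and 8.45 in the arrays where ACTA2 was lowest, and was lower in A39 replicate 2, A50 replicate 1, A95 replicate 2 and B96 replicate 1, at 6.48 to 7.86. NOX4, an oxidase raised by TGF-beta, was at 8.23 in primary replicate 1 and at 5.69 to 6.94 elsewhere, and TGFBR3, a coreceptor, was lowest in primary replicate 1 at 7.98. SMAD3, named after its values were seen, was lowest in the arrays where ACTA2 was lowest. It read 10.56 in A58 replicate 2 and 10.37 in A67 replicate 1, against 10.73 to 11.48 in the others. Its part in the contractile values was not tested.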

How the data were processed

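RNA of WI-38 cells was measured on 14 Affymetrix human gene-level arrays. The deposited table holds log2 values to 2 decimals, 1 column per array, and the log base is read from their range of 0 to 14.27. Per the labels, RNA was extracted in biological duplicate and labelled as sense target over the whole transcript. Not given in the sources used here are the authors' background correction, probe summary and normalization. The platform annotation named the rows, and RefSeq symbols replaced older ones where the gene ID matched: 19310 rows had 1 symbol, 1752 several and 7807 none. Where a list gene had several rows, the one with the highest mean was used. Listed genes without such a row were not analysed here.

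No row was filtered out. Group means over the 14 arrays were estimated by limma 3.58.1 under R 4.3.3 (7 residual degrees of freedom), and the slope over the 10 A arrays (8 residual degrees of freedom). Tests were two-sided, with Benjamini-Hochberg adjustment over all rows and a threshold of 0.05, and were tested on simulated data. The simulated arrays were drawn independently, without closest partners across labels, so the simulation cannot show how the tests behave under that dependence. The number of arrays limits the precision, and p-values measure only the spread between these arrays. From each other list the genes called and the 4 with the widest range over the arrays were named, along with defining markers for the check of cell type, chosen outside that rule. Likeness took the 5 genes with the highest Pearson r to the mean of the wide-ranging members, and 3 each for ACTA2 and MYH11. The members and lists were chosen with earlier results of these data known. Alternatives were each array left out, the replicate block, quantile and median scaling, a filter at the 30th percentile, 1 row per gene, a robust prior, array weights, the compared groups alone, and other forms of the slope. Promoter windows come from RefSeq, GRCh38.p14. Figures were drawn with matplotlib 3.10.9.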

Additional observations from a re-analysis of the deposited data

How the results depend on the processing

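The count of 0 contractile genes called held in A39 versus primary, A95 versus A39, B96 versus A95 and the F test under every alternative run, and in the slope under all but array weights, where 1 gene (MYH11) and 2171 rows passed. The number of rows with a slope, 81 as reported, was 159 with quantile normalization and 429 centred on array medians. It was 271 with the filter on dim rows, 174 with 1 row per gene, and 132 with an intensity trend and a robust prior. Passages replaced by their ranks gave 489. Arrays of 1 passage treated as a random block gave 729, at a negative estimated correlation between such arrays (-0.164). The number was 0 when only passages 39 to 67 were used. It ran from 0 to 571 with each array left out (571 without A95 replicate 1) and was 0 without both A58 replicate 2 and A67 replicate 1, an alternative chosen after seeing the data. In A95 versus A39, 2 rows passed with the compared groups alone. With each array left out, the rows called ran from 0 to 6 in A39 versus primary (6 without primary replicate 2), 0 to 4 in A95 versus A39 (4 without A95 replicate 1) and 0 to 3 in B96 versus A95 (3 without B96 replicate 2). The cause of these shifts was not tested.

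Signs changed for small differences. Centred on array medians, A39 versus primary was -0.02 for ACTA2 and -0.01 for MYH11, and ACTG2 was -0.045 in A95 versus A39 with a slope of -0.008. The ACTG2 slope was also -0.055 with array weights, -0.046 per step of passage rank and -0.237 for passages 39 to 67 alone. With each array left out, the log2 differences in A39 versus primary that changed sign were ACTA2 -0.085 to 0.155, ACTG2 -0.1 to 0.34, CALD1 -0.175 to 0.295, MYH11 -0.105 to 0.195, MYL9 -0.09 to 0.3, TAGLN -0.345 to 0.065, TPM1 -0.445 to 0.095 and TPM2 -0.165 to 0.085. In A95 versus A39 they were ACTG2 -0.35 to 0.4, DES -0.325 to 0.155, MYL9 -0.355 to 0.035, TAGLN -0.615 to 0.435 and TPM1 -0.765 to 0.165. In B96 versus A95 they were ACTA2 -0.14 to 0.48, ACTG2 -0.195 to 0.555, CALD1 -0.095 to 0.775, DES -0.355 to 0.125, TAGLN -0.015 to 1.035, TPM1 -0.47 to 0.46 and TPM2 -0.185 to 0.715. Slopes that did so were ACTG2 -0.093 to 0.043, DES -0.063 to 0.011, TAGLN -0.161 to 0.002 and TPM1 -0.141 to 0.003. None of these was called. The replicate number as a block left 0 contractile genes called, 0 rows in the 3 comparisons of labels and 74 rows with a slope. The labels do not say that the numbers pair arrays, and the correlation of replicate differences between labels was -0.529 to 0.196, over 0.1 in 4 of 21 pairs of labels.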
